A study of Homo sapiens with 16 samples.

Results

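Gene expression on an indium tin oxide (ITO) film was compared with that on ordinary cell culture plates in SH-SY5Y cells differentiated in the same way on both. SH-SY5Y is an established human neuroblastoma line that can be driven towards a neuron-like state. The comparison takes 4 of the 16 libraries of the series: 2 from differentiated cells on an ITO film without electrical stimulation and 2 from differentiated cells on plates. The members were chosen by the treatment named in the labels, with no measured value used. The series also holds undifferentiated cells on plates, cells on films of P(rGO), a composite of polymer and reduced graphene oxide, and of PEDOT:PSS, a conducting polymer blend, and stimulated cells on each of the 3 films, with 2 libraries in each group.

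All differentiated groups received the same schedule, per the labels' protocols. The serum share was 5% from day 2, then 2.5% from day 3 and finally 1% from day 5. Cells had 10 µM retinoic acid between days 3 and 6, then brain-derived neurotrophic factor (BDNF) at 50 ng/mL for 4 days, and penicillin and streptomycin were present from day 2. The protocols describe films coated with laminin and poly-L-lysine and name no coating for plates, so the ITO surface, the coating and any other difference between film and plate cannot be told apart. The cells come from 1 line, and the labels do not say whether the libraries of a group came from separate cultures. The p-values then measure no more than the spread between libraries of a group, which may be technical. That spread was estimated over all 16 libraries of the series.

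ITO is a transparent, electrically conducting metal oxide, widely used as an electrode on which cells can be watched and stimulated. Cells attach to a surface through integrins and the matrix they bind and deposit, and these contacts feed into kinase pathways that also carry growth factor signals. The ERK kinase pathway switches on immediate early transcription factors and, later, its own inhibitors. In sympathetic neuroblastoma cells, a circuit of transcription factors that includes HAND2, GATA3 and ISL1 maintains the noradrenergic identity, while BDNF acts through the receptor NTRK2.

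The 4 libraries held 16611130 and 16714392 reads assigned to genes on ITO and 18455213 and 19756694 on plates. They are called ITO 1, ITO 2, plate 1 and plate 2 by replicate number. Levels are given as CPM, read counts scaled to the size of each library, and are compared within a gene only. Both plate libraries differed from each other more than most film pairs did: the biological coefficient of variation was 18.1% on plates, 11.8% on ITO, 9.1% on P(rGO) and 7.51% on PEDOT:PSS. In plate 1, mitochondrially encoded transcripts took 8.58% of reads and ribosomal protein transcripts 4.79%, against 5.42% and 3.59% in plate 2, 5.81% and 2.64% in ITO 1 and 5.26% and 2.62% in ITO 2. ITO 2 stood apart from ITO 1 in a smaller set of genes. Among them CHRD, a secreted inhibitor of bone morphogenetic proteins, was at 20.3 CPM in ITO 1 and 127 in ITO 2, and KCNK3, a background potassium channel, at 56.4 and 176. The results are given with and without these libraries.

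The cells carried the markers of the line. Of 12 markers of SH-SY5Y cells, 11 were measured, with HAND2 between 848 and 896 CPM and STMN2 between 1696 and 2119 CPM in the 4 libraries. CHGA was listed at 0 in all 16 libraries, and TH, the first enzyme of catecholamine synthesis, was between 0.597 and 2.55 CPM. Because the RNA came from whole cultures, fewer cells of a kind and less RNA per cell cannot be told apart.

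On ITO, 764 of 18081 genes tested (4.23%) differed from plates at an adjusted p of at most 0.05, by edgeR's quasi-likelihood test with Benjamini-Hochberg adjustment. Of these, 452 genes (2.5% of those tested) were higher on ITO and 312 (1.73%) lower. The median log2 fold change was 1.34 among genes called higher and -1.21 among those called lower, and -0.02 over all genes tested. Among the called genes, 137 rose by at least 2 on the log2 scale and 81 fell by at least that much. The libraries of ITO and plates did not overlap in any of the 764 genes, nor in 50.6% of all genes tested. Of the called genes, 409 higher and 280 lower ones were protein-coding, and among protein-coding genes with at least 5 CPM in a group 596 of 10740 (5.55%) were called. The count rested on individual libraries: it was 132 without plate 1, 817 without plate 2, 313 without ITO 1 and 188 without ITO 2. The share that was higher ranged from 50% without plate 1 to 72.3% without ITO 2. A core of 97 genes, 58 higher and 39 lower, was called in the full fit and whichever of the 4 libraries was left out, and these genes are said below to hold without any 1 library.

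**Figure D1:**
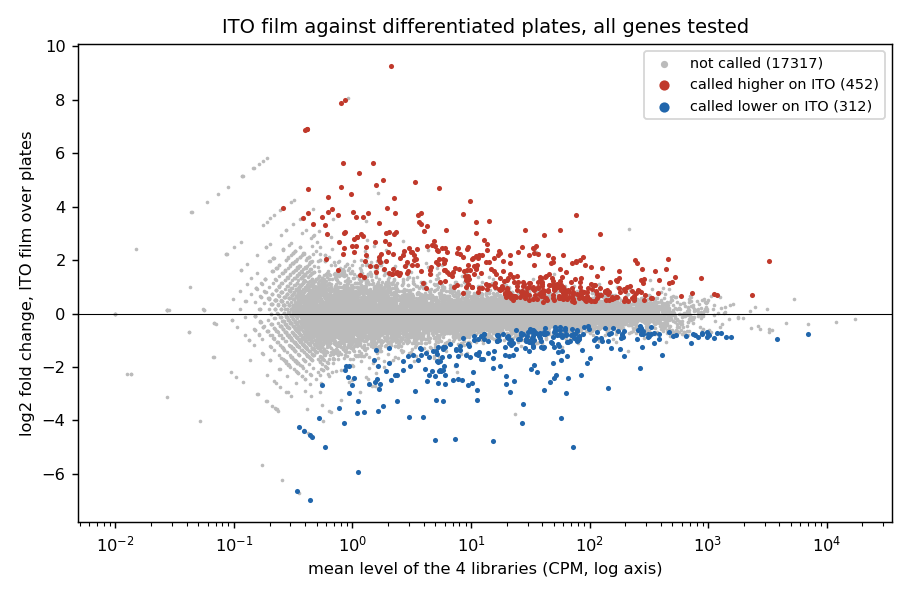
Log2 fold change of ITO over plates (vertical axis) against the mean level of the 4 libraries in CPM (horizontal log axis) for the 18081 genes tested, 1 point a gene. The 452 genes called higher (red) and the 312 called lower (blue) are spread over the range of levels, and the largest fold changes belong to genes of low level.

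Plotted against level, called genes were spread across the range of expression. When genes were divided into 4 equal bins by mean level, 56 were higher and 39 lower in the lowest bin and 140 and 85 in the highest. The median standard error was 0.60 on the log2 scale in the lowest bin and 0.16 in the highest.

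Among called genes with a symbol and at least 5 CPM in 1 of the groups, the largest rise was that of ARHGAP6, which encodes a GTPase-activating protein (chrX:11137543-11665701, GRCh38, GENCODE 29). Its level was 0.217 and 0.2 CPM on plates and 7.11 and 5.94 on ITO, a log2 fold change of 4.92 ± 0.51 (SE, adjusted p = 0.000202). Undifferentiated cells on plates had 6.8 and 6.6 CPM, both close to the ITO level. SGK1, a kinase that controls ion channels and transporters and responds to serum and glucocorticoids (chr6:134169246-134318112), was at 6.41 and 15.8 CPM on plates and at 125 and 162 on ITO (3.68 ± 0.36, adjusted p = 0.000151). Both ITO libraries were far above both plate libraries, and undifferentiated cells had 19.5 and 19.2 CPM.

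HS6ST3, a heparan sulfate 6-O-sulfotransferase, rose from 0.489 and 1.5 CPM to 14.4 and 23.2 (4.22 ± 0.58). INSYN2B, related to a protein of inhibitory synapses, rose from 0.109 and 0.649 to 5.21 and 15.4 CPM, with ITO 2 the higher library (4.71 ± 0.68). SNTG1, a syntrophin of the dystrophin complex, rose from 0.163 and 0.849 to 6.04 and 8.04 CPM. SERTM1, a small membrane protein, rose from 0.76 and 3 to 18.9 and 21.8 CPM, and DAPL1 from 0.489 and 1.05 to 7.64 and 7.69 CPM. DAPL1 was at 0 CPM in both libraries of undifferentiated cells. These 7 genes hold without any 1 library.

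The other 3 of the 10 largest rises depended on single libraries. ID1, an inhibitor of basic helix-loop-helix transcription factors, was at 1.3 and 1.1 CPM on plates but at 4.32 in ITO 1 and 27.7 in ITO 2, and its adjusted p was 0.159 without plate 1, 0.0809 without plate 2 and 0.261 without ITO 2. KLHDC8A rose from 0.977 and 3.6 to 12.3 and 39.3 CPM (adjusted p = 0.0584 without plate 1). GPNMB, a membrane glycoprotein, was at 0.651 and 0.699 CPM on plates and at 5.27 and 8.56 on ITO, with an adjusted p of 0.17 without plate 1, 0.069 without plate 2 and 0.117 without ITO 2.

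**Figure D2:**
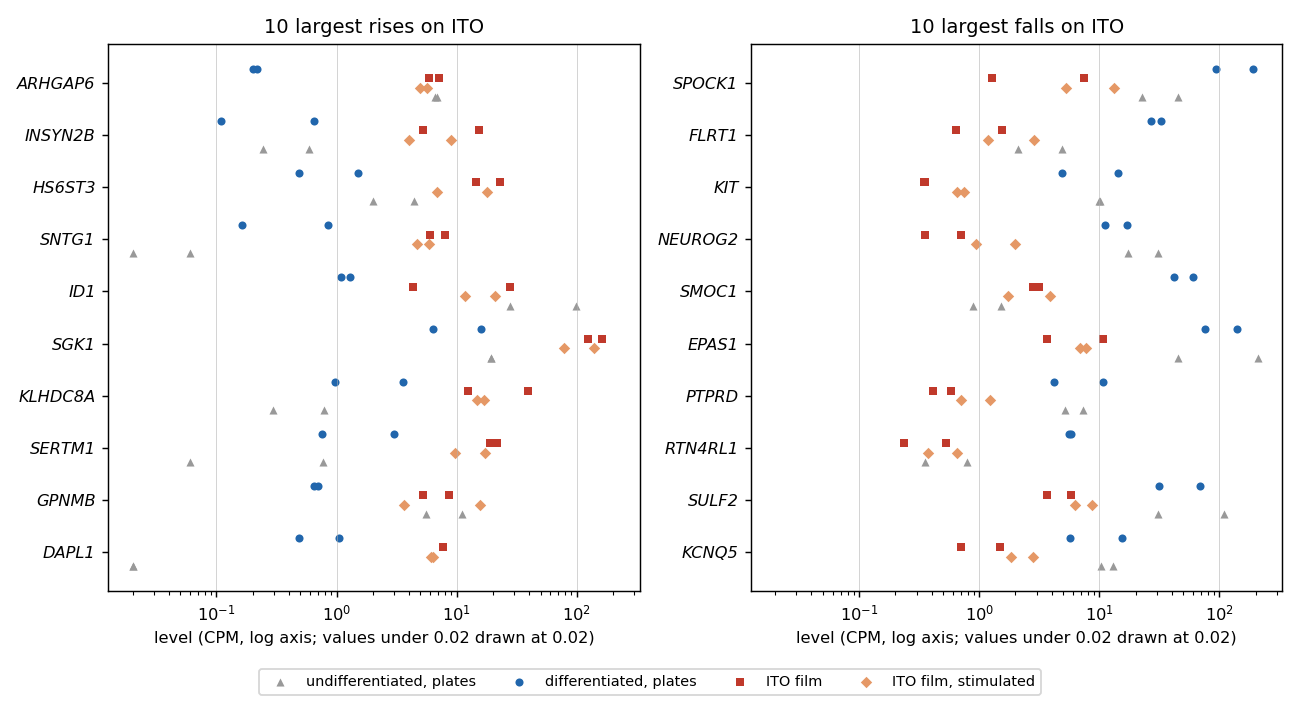
Levels in CPM (log axis) of the 10 genes with the largest rises (left) and falls (right) on ITO among calls at 5 CPM or more in a group, in 2 libraries each of undifferentiated cells on plates (grey triangles), differentiated cells on plates (blue circles), ITO (red squares) and stimulated ITO (orange diamonds). Plates and ITO do not overlap for any of the 20 genes, and the stimulated ITO libraries lie on the ITO side of the plates.

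SPOCK1, a secreted proteoglycan also called testican (chr5:136975298-137598379), fell the most by the same criteria. It was at 188 and 93.4 CPM on plates and at 7.46 and 1.28 on ITO, and fell by 5.01 ± 0.67 on the log2 scale (adjusted p = 0.0012). FLRT1, a leucine-rich repeat membrane protein that binds fibroblast growth factor receptors and latrophilins, went from 27 and 32.7 CPM to 1.54 and 0.641. KIT, the receptor of stem cell factor (chr4:54657918-54740715), was at 14.2 and 4.84 CPM on plates and at 0.355 and 0.349 on ITO (-4.72 ± 0.63, adjusted p = 0.0012). NEUROG2, a proneural transcription factor (chr4:112513516-112516172), was at 16.9 and 11.1 CPM on plates and at 0.355 and 0.699 on ITO (-4.71 ± 0.59). For KIT and NEUROG2 the undifferentiated cells resembled the plates in level, with 9.94 and 10 CPM of KIT and 30.9 and 17.4 CPM of NEUROG2.

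SMOC1, a secreted calcium-binding matrix protein, fell from 41.9 and 59.6 CPM to 3.14 and 2.8, and was low in undifferentiated cells as well, at 0.887 and 1.51. EPAS1, which encodes the hypoxia-inducible factor HIF-2α, fell from 140 and 76 CPM to 3.67 and 10.8 (-3.90 ± 0.63). PTPRD, a receptor tyrosine phosphatase, RTN4RL1, a relative of the Nogo receptor, and KCNQ5, a potassium channel of the M current, fell by 3.88, 3.87 and 3.26 on the log2 scale. These 9 genes hold without any 1 library. SULF2, an extracellular enzyme that removes 6-O-sulfates from heparan sulfate, fell from 68.2 and 31.4 CPM to 5.8 and 3.67 (-3.39 ± 0.56, adjusted p = 0.00406), with an adjusted p of 0.0551 without plate 1 and 0.0786 without ITO 2.

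Genes with small p-values and close replicates include several of more modest fold. RADIL, an effector of the small GTPase RAP in cell adhesion, was at 93.1 and 99.7 CPM on plates and at 33.3 and 31.2 on ITO (-1.58 ± 0.13, adjusted p = 7.09e-05). PLS3, an actin-bundling plastin, rose from 9.83 and 13.2 to 55.4 and 56.4 CPM (2.28 ± 0.20). B4GALT6, a galactosyltransferase of glycosphingolipid synthesis, rose from 14.1 and 23.3 to 73.2 and 86.5 CPM. PRSS12, the secreted protease neurotrypsin, rose from 154 and 203 to 734 and 729 CPM, and OSBPL3, an oxysterol-binding protein, from 28.6 and 38 to 129 and 138 CPM. TACC2, a centrosomal protein, fell from 96.9 and 76.9 to 18 and 16.8 CPM, and PDZRN3, a ubiquitin ligase, from 138 and 85.7 to 13.7 and 14.7 CPM. In each of these genes the ITO libraries lay closer to each other than to any plate library. The genes were singled out after their values were seen, so this closeness follows from the choice.

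The 5 most abundant called genes in each direction included secretory, cytoskeletal and translation genes. VGF, a secreted neuropeptide precursor induced by neurotrophins, was at 975 and 1704 CPM on plates and 5207 and 5264 on ITO (1.97 ± 0.43, adjusted p = 0.0195). ACTB, APP and ALCAM rose by 0.70, 0.70 and 0.72 on the log2 scale. The translation factors EEF1A1 and EEF2 fell by 0.76 and 0.94, with 9698 and 7721 CPM of EEF1A1 on plates and 5313 and 4995 on ITO. The most abundant genes called lower also included RPL4, RACK1 and HNRNPA1, which fell by 0.88, 0.89 and 0.73. Of these 9 genes, none kept an adjusted p at or under 0.05 without plate 1, without ITO 1 or without ITO 2. SCG2, the tenth, which is described with the granins, kept its call without plate 1 and lost it without ITO 1 and without ITO 2. Without plate 1 the values ran from 0.202 for EEF2 to 0.378 for RPL4. Transcripts such as ACTB, EEF1A1, HNRNPA1 and RPL4 have near-identical copies in the genome, so their counts are uncertain.

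Immediate early genes, which growth factors and calcium switch on within minutes, were higher on ITO as a group. Of 21 tested, 10 rose and none fell (47.6% called), with a median log2 fold change of 0.95. Over all genes tested, 4.23% were called, 2.5% higher and 1.73% lower, and 8595 of 18081 had a positive log2 fold change. The list counts here and below stand beside these shares. EGR1, a zinc finger factor, was at 17.4 and 38.4 CPM on plates and at 223 and 212 on ITO (2.96 ± 0.55, adjusted p = 0.00775). Its relative EGR3 rose from 0.0543 and 0.4 to 3.79 and 3.55 CPM. Both ITO libraries were several times above both plate libraries for these genes, and undifferentiated cells, with 7.34 and 21.8 CPM of EGR1, were on the plate side.

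Of the partners that form the dimeric factor AP-1, FOSL2 rose from 6.57 and 4.59 to 19.9 and 22.9 CPM (1.94 ± 0.26, adjusted p = 0.00113). FOS rose by 2.25, FOSL1 by 2.30 and JUNB by 1.18, while JUN had a log2 fold change of -0.72 ± 0.39 that did not pass the test (adjusted p = 0.393). ARC, a synaptic regulator, rose from 5.32 and 4.59 to 16.6 and 18.8 CPM, and EGR2, KLF10 and IER5 completed the 10 calls. MYC, at 36.3 and 10.3 CPM on plates and 6.22 and 8.16 on ITO, was not called (adjusted p = 0.0963). FOSL2 and EGR3 hold without any 1 library, whereas the list had 2 calls without plate 1, 9 without plate 2, 6 without ITO 1 and 4 without ITO 2. For EGR1 the adjusted p was 0.128 without plate 1.

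The 250 bases before the start of each gene were searched on both strands for short motifs of factors that act downstream of growth factors and stress, with RefSeq sequences of build GRCh38.p14. The table matched 348 of the 452 genes called higher and 230 of the 312 called lower. Upstream of EGR1 it showed a pair of CArG boxes, the letters bound by serum response factor. They are printed because EGR1 was the 1 gene with this box among the 6 immediate early genes that rose and had a promoter. The capitals mark the box, on the plus strand of chr5:138465354-138465403, 105 bases before the start, and of chr5:138465376-138465425, 83 bases before it. The windows overlap.
EGR1, distal box: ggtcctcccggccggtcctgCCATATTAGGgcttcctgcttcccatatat
EGR1, proximal box: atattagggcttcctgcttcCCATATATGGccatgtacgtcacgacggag

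A CArG box was present before 1 of the 6 immediate early genes that rose and had a promoter in the table, and in 0.862% of the genes called higher, 0.435% of those called lower and 0.931% of the 11600 tested genes with a promoter. The AP-1 site TGANTCA occurred before 30 of 348 genes called higher (8.62%), 9 of 230 called lower (3.91%) and 442 of the 11600 tested (3.81%), and in 6.6% of all 27305 promoters. The cyclic AMP response element TGACGTCA occurred in 1.72%, 2.61% and 2.79% of the same sets of higher, lower and tested genes. These shares are descriptions, and a match is not a bound site.

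The ERK pathway's own inhibitors were also among the genes called. Of 19 tested feedback genes, 4 rose and 1 fell (26.3% called), with a median log2 fold change of 0.13. DUSP5, a nuclear phosphatase of ERK, rose from 3.64 and 5.14 to 24 and 21.5 CPM (2.37 ± 0.33, adjusted p = 0.00156). The Sprouty genes, whose products damp receptor tyrosine kinase signals, rose for the 3 members listed: SPRY2 from 23.8 and 23.6 to 67.4 and 56.7 CPM, SPRY1 by 1.97 and SPRY4 by 1.16 on the log2 scale. PHLDA1 went the other way, from 17.1 and 22.8 to 3.08 and 2.39 CPM (-2.86 ± 0.33). DUSP5, SPRY2 and PHLDA1 hold without any 1 library. SPRY1 had an adjusted p of 0.0514 without ITO 1 and 0.0523 without ITO 2, and SPRY4 of 0.125 without plate 1 and 0.12 without ITO 2.

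Receptor tyrosine kinases and their ligands split by direction. Of 36 tested (25% called), 3 rose, all of them ligands, and 6 fell, 5 of them receptors or co-receptors. KITLG, the stem cell factor that binds KIT, rose from 16.1 and 23.9 to 65.6 and 83.1 CPM (1.89 ± 0.22, adjusted p = 0.000427), the opposite of its receptor. NRG1, a neuregulin, rose by 1.09 and PTN, pleiotrophin, by 1.57. ALK, a receptor kinase that is an oncogene in neuroblastoma, fell from 461 and 496 to 232 and 210 CPM (-1.11 ± 0.20). PDGFRA fell from 99.6 and 55.9 to 20.7 and 22.2 CPM, GFRA3, the artemin co-receptor, by 2.09 and the insulin receptor INSR by 0.60. IGF2, a ligand whose reads overlap a read-through gene, fell by 2.54. The BDNF receptor NTRK2 was not called, with a log2 fold change of -0.40 ± 0.36 (adjusted p = 0.644). Without plate 1 or without ITO 2 the list had 3 calls, without ITO 1 it had 5 and without plate 2 it had 8. KIT and KITLG hold without any 1 library.

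Genes of bone morphogenetic protein (BMP) signalling changed in both directions. Of 16 tested (31.2% called), ID1, ID2 and ID4 rose and the receptor BMPR1B and the ligand BMP7 fell. ID2 was at 8.03 and 8.69 CPM on plates, 13.1 in ITO 1 and 70.5 in ITO 2, so 1 library carried most of the rise. BMPR1B fell from 56.3 and 49.7 to 26.1 and 25.3 CPM (-1.05 ± 0.24, adjusted p = 0.0243). The list had no call without plate 1 or without ITO 2, 3 without ITO 1 and 2 without plate 2. CHRD, a BMP inhibitor outside the list, is the gene given above with 127 CPM in ITO 2.

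Of 15 genes of TGF-beta and activin signalling (13.3% called), INHBA rose and PMEPA1 fell. INHBA, which encodes the activin A subunit, was at 6.73 and 14 CPM on plates, 87.6 in ITO 1 and 32.1 in ITO 2 (2.52 ± 0.41, adjusted p = 0.00373, and 0.075 without plate 1). PMEPA1, a target and inhibitor of the pathway, fell by 0.70 (adjusted p = 0.0216, and 0.135 without plate 1, 0.0652 without plate 2 and 0.249 without ITO 2).

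Axon guidance genes changed in both directions, with 5 of 38 tested higher and 5 lower (26.3% called) and a median log2 fold change of 0.00. SLIT1, a secreted ligand that repels axons through ROBO receptors (chr10:96998038-97185920), was at 262 and 240 CPM on plates and at 40.6 and 32.3 on ITO (-2.78 ± 0.23, adjusted p = 7.09e-05). NRP2, a co-receptor for class 3 semaphorins, fell from 5.75 and 6.19 to 0.711 and 0.874 CPM. SEMA6A, a transmembrane semaphorin, fell from 35 and 21 to 7.34 and 6.87 CPM, and RTN4RL1 from 5.54 and 5.79 to 0.237 and 0.524 CPM. The secreted semaphorins SEMA3C and SEMA3D rose, SEMA3C from 12.3 and 8.19 to 62.8 and 49 CPM (2.45 ± 0.34) and SEMA3D from 0.109 and 0.0999 to 3.61 and 3.38 CPM. In all 6 genes the ITO and plate libraries were far apart.

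RGMB, a BMP co-receptor and neogenin ligand, fell by 0.85, while PLXNA2, a plexin that transmits semaphorin signals, rose from 174 and 278 to 524 and 561 CPM (1.26 ± 0.21). SEMA6D and the ephrin receptor EPHB3 rose by 0.72 and 1.00. SLIT1, NRP2, SEMA6A, RTN4RL1, SEMA3C and SEMA3D hold without any 1 library. The other 4 had adjusted p-values of 0.0604 for PLXNA2, 0.125 for SEMA6D, 0.142 for RGMB and 0.199 for EPHB3 without plate 1. The count for the list ranged from 6 without plate 1 to 11 without plate 2.

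**Figure D3:**
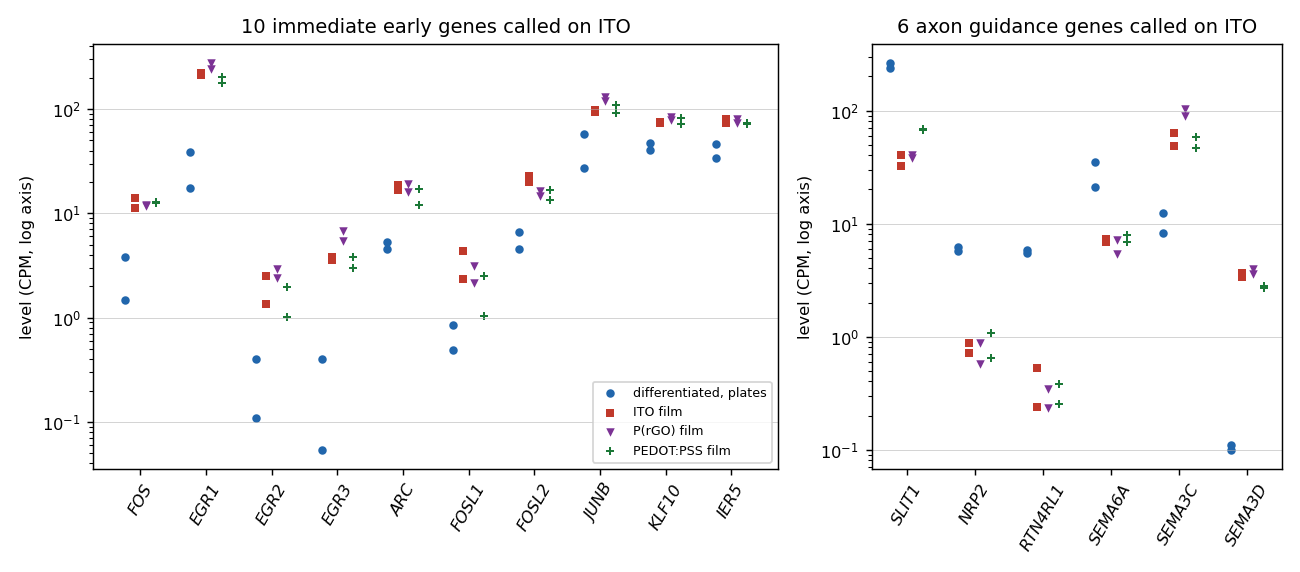
Levels in CPM (log axis) of the 10 immediate early genes called higher on ITO (left) and the 6 axon guidance genes that held without any 1 library (right), in 2 libraries each of differentiated plates (blue circles), ITO (red squares), P(rGO) (purple triangles) and PEDOT:PSS (green crosses). EGR1 is at 17.4 and 38.4 CPM on plates and 223 and 212 on ITO, and the other films, which share the plate libraries as their control, are plotted beside ITO for their own levels.

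Among proneural and Notch genes, 2 of 18 tested rose and 4 fell (33.3% called). Beside NEUROG2, DLK1, an atypical Notch ligand and marker of chromaffin precursors, fell from 111 and 47.2 to 14 and 12.8 CPM (-2.56 ± 0.36, adjusted p = 0.00166). Both genes hold without any 1 library. The ligand JAG1 fell by 1.15, and LFNG, a glycosyltransferase that tunes Notch receptors, fell from 5.59 and 6.69 to 2.66 and 1.69 CPM. The receptor NOTCH2 rose from 18.6 and 26.3 to 52 and 59.8 CPM, and HES1, a Notch target that represses proneural genes, from 1.03 and 1.15 to 3.61 and 8.1 CPM (2.42 ± 0.45). Their adjusted p-values without ITO 2 were 0.0936 for NOTCH2, 0.117 for HES1, 0.223 for JAG1 and 0.283 for LFNG. The list had 2 calls without plate 1, 5 without plate 2, 4 without ITO 1 and 2 without ITO 2.

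Genes of the adrenergic identity were lower or not called. Of 24 tested, 5 fell and none rose (20.8% called), with a median log2 fold change of -0.29. ISL1 fell from 447 and 375 to 246 and 214 CPM (-0.84 ± 0.16, adjusted p = 0.0109). DBH, the enzyme that makes noradrenaline, fell from 1058 and 905 to 498 and 405 CPM. HAND1 and EYA1 fell by 0.93 and 1.09. INSM2, an insulinoma-associated zinc finger factor outside this list (chr14:35534042-35537054), fell from 96.6 and 71.3 to 19.2 and 12.1 CPM (-2.43 ± 0.21, adjusted p = 7.47e-05) and holds without any 1 library. None of the 5 list genes was called without plate 1 or without ITO 2, 1 was called without ITO 1 and 4 without plate 2.

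Of 19 tested genes of the mesenchymal neuroblastoma state, 5 rose and none fell (26.3% called), with a median log2 fold change of 1.30. Among them FOSL1, FOSL2 and NOTCH2 belong also to lists given above. FN1, fibronectin, rose from 8.41 and 15 to 22.5 and 36.8 CPM (1.34 ± 0.30), and SOX9 by 2.32 on the log2 scale. FOSL2 holds without any 1 library, while SOX9 had an adjusted p of 0.3 and FN1 of 0.297 without plate 1. The list had 1 call without plate 1, 1 without ITO 2, 3 without plate 2 and 6 without ITO 1, and its median was 0.67 without ITO 2.

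Markers of fibroblasts moved beside these genes. Of 14 markers, 12 were tested, of which COL3A1, DCN, LUM and S100A4 rose and PDGFRA fell (41.7% called). Their summed level was 547 and 470 CPM on plates and 521 and 650 on ITO. TWIST1, which was not called, made up 159 and 130 CPM of it on plates and 148 and 184 on ITO. POSTN was at 0 in all 4 libraries and FAP at 0 in all but ITO 2. COL3A1, a fibrillar collagen, was at 4.07 and 7.54 CPM on plates, 11.6 in ITO 1 and 90.2 in ITO 2, with an adjusted p of 0.603 without ITO 2. The fibroblast list had 1 call without plate 1, 2 without plate 2, 3 without ITO 1 and 1 without ITO 2. Of 14 Schwann cell and glial markers, 5 were at 0 counts in all 4 libraries, 9 were under 1 CPM and none was called, with sums of 25.9 and 28.3 CPM on plates and 40.6 and 23.4 on ITO. Of 10 endothelial and blood cell markers 4 were at 0 in all 4 libraries and none was called. The part of other cell types in the matrix and mesenchymal genes was not tested.

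Adhesion molecules were mostly higher where they were called. Of 24 cadherins and related genes tested, 4 rose and none fell (16.7% called). CDH11, a cadherin of mesenchymal and neural crest cells (chr16:64943753-65126112), rose from 83.3 and 132 to 439 and 360 CPM (1.89 ± 0.20, adjusted p = 0.000217). NRCAM, a neuronal adhesion molecule of the L1 family, rose from 293 and 295 to 648 and 644 CPM (1.14 ± 0.13). Both hold without any 1 library. NRXN3, a neurexin, rose by 2.09, and ALCAM is the fourth. Without plate 1 or ITO 2 the list had 2 calls.

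Of 29 integrin and focal adhesion genes, 4 rose and 1 fell (17.2% called, against 4.23% of all genes tested). A positive log2 fold change was seen in 24, with a median of 0.31, and in 8595 of all 18081 genes. ITGA4, the integrin α4 subunit, rose from 1.47 and 1.15 to 8.88 and 8.1 CPM (2.70 ± 0.40, adjusted p = 0.00215). ITGB1, its β1 partner, rose from 428 and 501 to 774 and 683 CPM (0.65 ± 0.14). FERMT2, a kindlin that activates integrins, rose by 0.70. TLN2, a talin, fell by 0.80. ITGA4 holds without any 1 library. ITGB1, FERMT2 and TLN2 were not called without plate 1, ITO 1 or ITO 2, with adjusted p-values of 0.188, 0.13 and 0.166 without plate 1. Of 20 targets of YAP and TEAD, which respond to stiffness and spreading, 14 had a positive log2 fold change, with a median of 0.37. None was called higher, and AMOTL2 and FJX1 fell by 0.78 and 2.16 (10% called). Neither was called without plate 1, ITO 1 or ITO 2, with values of 0.177 and 0.352 without plate 1.

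Of 47 genes of the extracellular matrix and its proteoglycans, 9 rose and 2 fell (23.4% called), with a median log2 fold change of 0.04. LUM, lumican, a small proteoglycan, rose from 1.85 and 3 to 23.7 and 15.1 CPM (3.00 ± 0.37, adjusted p = 0.000778) and holds without any 1 library. Beside LUM, COL3A1, FN1 and DCN, the laminin chains LAMA4 and LAMC1 rose by 1.37 and 0.84. NID1, nidogen, which links laminin to collagen, rose from 23.3 and 30.4 to 92.2 and 79.3 CPM (1.67 ± 0.31, adjusted p = 0.0079). BCAN, brevican, a proteoglycan of the neural matrix, rose from 7.27 and 10 to 17.8 and 30.4 CPM. SPOCK1 and GPC3, a glypican, were the genes that fell, GPC3 from 6.84 and 4.09 to 1.95 and 1.28 CPM. NID2 had 2 counts over both plate libraries and 27 over both ITO libraries, a ratio of 15.2 with a 95% counting interval of 3.83 to 132. The list had 3 calls without plate 1, 10 without plate 2, 5 without ITO 1 and 5 without ITO 2.

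Matrix proteases and their inhibitors split. Of 20 tested, 2 rose and 4 fell (30% called). MMP15, a membrane-bound metalloproteinase, fell from 128 and 169 to 42.7 and 38.6 CPM (-1.87 ± 0.20, adjusted p = 0.000202), and ADAM12 rose from 104 and 93.2 to 269 and 204 CPM. Both hold without any 1 library. The inhibitor TIMP1 rose by 1.03, while TIMP3 and SERPINE2 fell by 0.84 and 3.74. SERPINE2 had only 77 counts over both plate libraries and 5 over both ITO libraries. ADAMTS1 fell by 0.99. Without plate 1 the adjusted p-values of these 4 were 0.161, 0.108, 0.234 and 0.229.

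Neuropeptides and granins, the cargo of dense-core vesicles, were higher where called. Of 17 tested, 5 rose and none fell (29.4% called). VIP, vasoactive intestinal peptide (chr6:152750798-152759765), rose from 9.23 and 13.9 to 68 and 136 CPM (3.14 ± 0.40, adjusted p = 0.000914). PAM, the enzyme that amidates peptides, rose from 60.7 and 64.6 to 109 and 107 CPM (0.79 ± 0.12). Both hold without any 1 library. SCG2, secretogranin II, rose from 312 and 676 to 1279 and 1233 CPM, with an adjusted p of 0.0568 without ITO 1 and 0.0634 without ITO 2. CALCA, which encodes calcitonin gene-related peptide, was at 0.109 and 0.499 CPM on plates and at 3.79 and 4.72 on ITO (adjusted p = 0.0179, and 0.218 without plate 1, 0.0541 without ITO 1 and 0.104 without ITO 2). VGF, given above, was the fifth.

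Of 37 neurite and growth cone genes tested, 4 rose and 1 fell (13.5% called, against 4.23% of all genes tested). GAP43, a growth cone protein, was at 130 and 147 CPM on plates and at 321 and 226 on ITO (0.98 ± 0.24, adjusted p = 0.0349). MAP1A, a microtubule-associated protein, rose from 124 and 228 to 412 and 356 CPM, and TMSB4X, which binds monomeric actin and has near-identical copies, by 1.21. DCLK1 rose by 0.57 and ELAVL2, an RNA-binding protein of neurons, fell by 1.01. GAP43, DCLK1 and ELAVL2 lost the call whichever of the 4 libraries was left out. The log2 fold change of GAP43 was then 0.70 without ITO 1 and 1.21 without ITO 2. No member was called without plate 1, and 1 was called without ITO 1 and 1 without ITO 2. TMSB4X had an adjusted p of 0.0693 without plate 1.

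Genes of the synaptic vesicle and active zone gave 5 rises and 1 fall among 37 tested (16.2% called, against 4.23% of all genes tested). A positive log2 fold change was seen in 28 of them, and in 8595 of all 18081 genes. SYN2, a synapsin, rose from 42.3 and 55 to 94.3 and 95.1 CPM (0.96 ± 0.16, adjusted p = 0.0037, and 0.0734 without plate 1). SYT4, a synaptotagmin, rose from 256 and 334 to 775 and 741 CPM. CPLX2, a complexin, and SV2A rose by 0.82 and 0.59, and RIMS3 fell by 0.76. The list had 1 call without plate 1, 1 without ITO 1 and 2 without ITO 2.

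Of 39 voltage-gated channel genes tested, 6 fell and 2 rose (20.5% called). KCNH1, a potassium channel, fell from 52 and 24.2 to 6.04 and 3.84 CPM (-2.94 ± 0.41, adjusted p = 0.00152), and with KCNQ5 it holds without any 1 library. CACNA1D, an L-type calcium channel, was at 14.8 and 18.1 CPM on plates and at 4.32 and 0.874 on ITO. HCN4, a pacemaker channel, and CACNA2D3, a calcium channel subunit, fell by 2.44 and 2.37. Both rested on few reads: HCN4 had 106 counts over both plate libraries and 17 over both ITO libraries, and CACNA2D3 had 60 and 10. KCNA3 and SCN7A rose by 1.06 and 2.03. The list had 3 calls without plate 1, 7 without plate 2, 4 without ITO 1 and 3 without ITO 2.

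Of 26 receptors for glutamate, GABA and acetylcholine, 2 rose and 4 fell (23.1% called). CHRM3, the muscarinic M3 receptor, fell from 371 and 407 to 191 and 139 CPM (-1.23 ± 0.21, adjusted p = 0.00443, and 0.083 without ITO 2). GRIN1, the obligate subunit of NMDA receptors, fell from 85.8 and 54.2 to 31.6 and 27.2 CPM, and GRM8 and GRIK3 by 1.54 and 3.45. GRIK3 had only 124 counts over both plate libraries and 10 over both ITO libraries. GRM7 rose from 9.23 and 8.94 to 18.4 and 19.8 CPM (1.07 ± 0.17) and holds without any 1 library. GRIA3 rose by 1.72, with an adjusted p of 0.0526 without plate 1 and 0.0541 without ITO 1. Without plate 1 or ITO 2 the list had 2 calls, and without plate 2 it had 8.

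**Figure D4:**
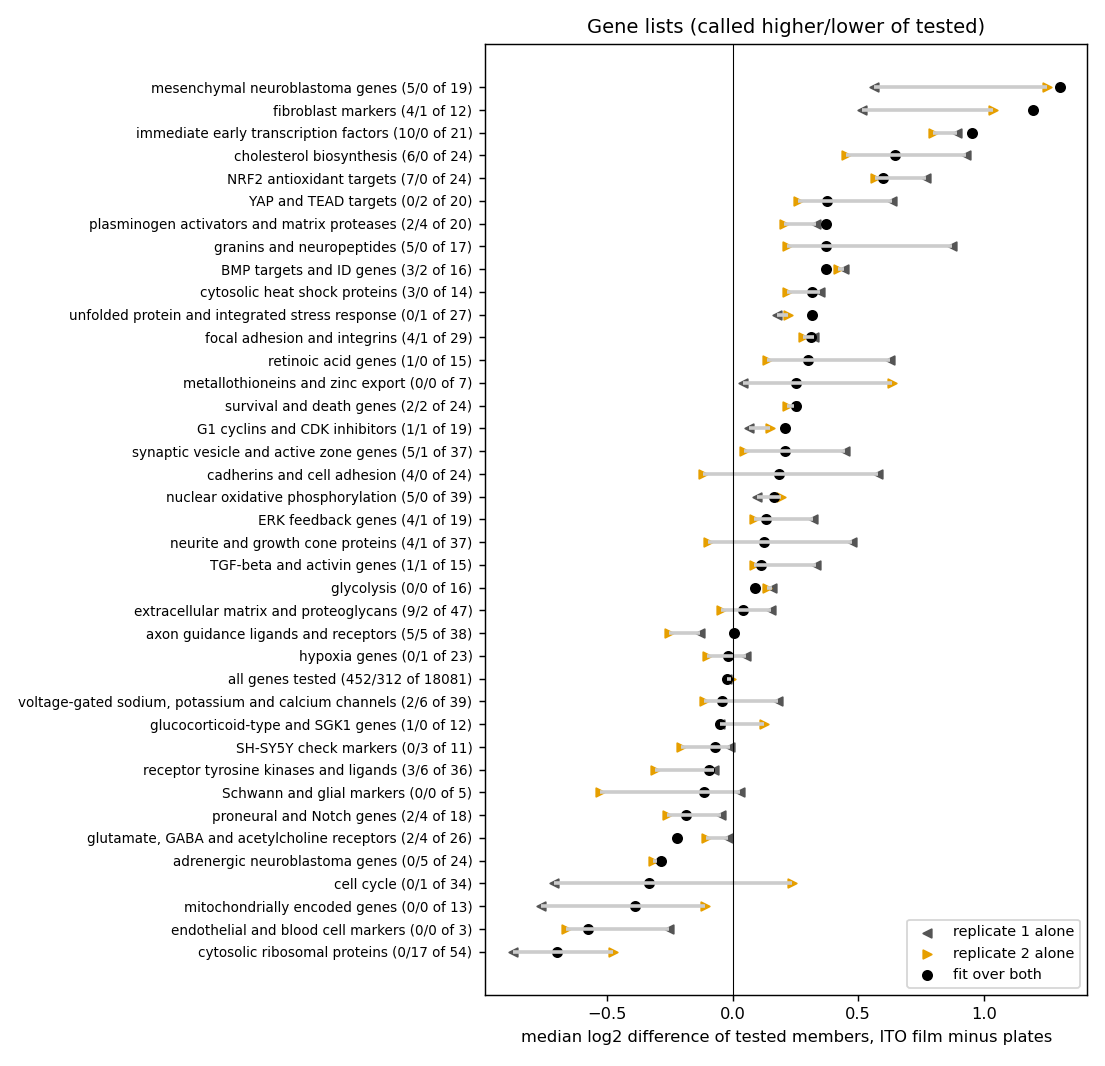
Median log2 difference, ITO minus plates, of the tested members of 38 gene lists and of all genes, from the fit over both replicates (black) and from the libraries of replicate number 1 (grey triangles) and 2 (orange triangles) alone, which use a prior count of 2 and so are drawn towards 0 for rare genes. Ribosomal proteins have the lowest median (-0.70), immediate early genes stand at 0.95, and the cell cycle list lies on both sides of 0.

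Enzymes of cholesterol synthesis were higher on ITO as a group. Of 24 tested, 6 rose and none fell (25% called). All 24 had a positive log2 fold change, with a median of 0.65 against -0.02 over all genes. HMGCS1, an early enzyme of the mevalonate pathway, rose from 179 and 211 to 378 and 310 CPM (0.82 ± 0.19, adjusted p = 0.0292). MVK, mevalonate kinase, rose from 33.1 and 46.5 to 68.3 and 80.2 CPM, and ACAT2, which starts the pathway, from 87.7 and 104 to 177 and 167 CPM. IDI1, NSDHL and SC5D rose by 0.57, 0.84 and 0.48. No member was called without plate 1, without ITO 1 or without ITO 2, and 6 were without plate 2. The median was 0.93 between the libraries of replicate number 1 and 0.45 between those of number 2.

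Targets of NRF2, the transcription factor of the antioxidant response, were also higher. Of 24 tested, 7 rose and none fell (29.2% called), and 23 had a positive log2 fold change, with a median of 0.60. NQO1, a quinone reductase, rose from 6.57 and 9.79 to 46.5 and 45.5 CPM (2.49 ± 0.34, adjusted p = 0.0014) and holds without any 1 library. TXNRD1, thioredoxin reductase, rose from 181 and 180 to 346 and 270 CPM and its substrate TXN from 49.1 and 45.9 to 84.7 and 67.3 CPM. ME1, which supplies NADPH, rose by 0.96, and OSGIN1 and AKR1C3 by 2.18 and 1.81. HMOX1, heme oxygenase, was at 0.543 and 1.1 CPM on plates and 3.02 and 1.63 on ITO and was not called (adjusted p = 0.368). NQO1 was the gene that kept its call in all 4 leave-outs, and the list had 1 call without plate 1, 2 without plate 2, 1 without ITO 1 and 3 without ITO 2.

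Upstream windows of 3 of these genes are printed because they hold the letters TGACNNNGC of the antioxidant element or an AP-1 site, marked in capitals. That of TXNRD1 lies on the plus strand of chr12:104215660-104215708, 99 bases before the start, and that of OSGIN1 on the plus strand of chr16:83953123-83953169, 97 bases before it. In ME1, on the minus strand of chr6:83431160-83431208 and 137 bases before the start, an AP-1 site and an antioxidant element share their first letters.
TXNRD1, antioxidant element: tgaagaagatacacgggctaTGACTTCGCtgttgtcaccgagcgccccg
ME1, antioxidant element and AP-1 site: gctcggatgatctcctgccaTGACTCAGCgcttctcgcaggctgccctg
OSGIN1, AP-1 site: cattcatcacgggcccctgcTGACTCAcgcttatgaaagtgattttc

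The antioxidant letters occurred before 2 of the 6 NRF2 targets that rose and had a promoter in the table, and before 8.91% of genes called higher, 9.57% of those called lower and 12.2% of those tested. The sterol element TCACNCCAC occurred before none of the 5 cholesterol genes that rose and had a promoter in the table, which says only that these letters are not in these windows. It occurred in 0.819% of tested genes.

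Ribosomal protein genes were lower on ITO. Of 54 tested, 17 fell and none rose (31.5% called), all 54 had a negative log2 fold change, and the median was -0.70. RPL3 was at 1294 and 955 CPM on plates and at 644 and 664 on ITO (-0.78 ± 0.18, adjusted p = 0.0246). RPLP0 and RPL22 fell by 0.87 and 0.77. The ITO libraries were below both plate libraries in 52 of the 54 genes, against 26% of all genes tested. Plate 1 was the highest library, as its share of ribosomal protein reads given above shows, and the median between the libraries of replicate number 1 was -0.88, against -0.48 for number 2. None of the 54 was called without plate 1, ITO 1 or ITO 2, while 33 were without plate 2. Many of these genes have near-identical copies, so their counts are uncertain.

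The 13 mitochondrially encoded genes, which also took a larger share of reads in plate 1, all had negative log2 fold changes, and none was called. Their median was -0.39, with -0.76 for replicate number 1 and -0.11 for number 2. Of 39 nuclear genes of oxidative phosphorylation, 5 rose and none fell (12.8% called). COX6C, COX6A1, NDUFA1, NDUFA4 and ATP5MC3 rose by 0.55, 0.67, 0.54, 0.53 and 0.42. None of the 5 was called without plate 1, ITO 1 or ITO 2, and COX6C had an adjusted p of 0.114 without plate 1. None of 16 glycolysis genes was called.

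The cell cycle list depended on plate 1 for its direction. Of 34 tested, only the replication helicase gene MCM7 was called, from 605 and 423 CPM on plates to 248 and 280 on ITO (-0.96 ± 0.21, adjusted p = 0.019, and 0.257 without plate 1). The median of the list was -0.33 in the fit, -0.71 for replicate number 1 and 0.24 for number 2, and it was 0.21 without plate 1. MKI67 was at 171 and 104 CPM on plates and 123 and 122 on ITO, so plate 1 was high and plate 2 low. Among cyclins and their inhibitors, CDKN1A, the p21 inhibitor, rose from 69.8 and 106 to 216 and 314 CPM (1.59 ± 0.28, adjusted p = 0.00566) and CDK6 fell from 222 and 159 to 99.8 and 86.3 CPM (-1.04 ± 0.17). Without plate 1 the adjusted p was 0.108 for CDKN1A and 0.0608 for CDK6, and without ITO 2 it was 0.0789 and 0.0664.

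Of 14 heat shock protein genes, BAG3, DNAJB4 and HSPA6 rose (21.4% called, against 4.23% of all genes tested). BAG3, a co-chaperone, was at 1.74 and 2.45 CPM on plates and 9.18 and 8.15 on ITO. HSPA6, an inducible chaperone with a near-identical copy, had 2 counts over both plate libraries and 100 over both ITO libraries, a ratio of 56.4 with a counting interval of 15.2 to 473. None of the 3 was called when any library was left out, and for BAG3 the adjusted p ran from 0.0552 without plate 2 to 0.254 without plate 1. Of 24 survival and death genes (16.7% called), CDKN1A and the death receptor TNFRSF10B rose and the pro-apoptotic BCL2L11 and BMF fell, by 0.82 and 0.92. BCL2L11 was at 74.5 and 75 CPM on plates and 42.4 in both ITO libraries, with an adjusted p of 0.0925 without plate 1. None of the 24 was called without plate 1 or ITO 2. Of 27 genes of the unfolded protein and integrated stress response, PHGDH was the only call, lower by 0.78 (0.258 without plate 1).

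Among the remaining lists, SGK1 was the only call of 12 glucocorticoid-type genes, and EPAS1 the only call of 23 hypoxia genes. TGM2, a transglutaminase, was the only call of 15 retinoic acid genes, from 2.77 and 5.34 CPM to 12.5 and 23.6 (adjusted p = 0.0225, and 0.28 without plate 1 and 0.223 without ITO 2). No metallothionein was called. The share called was 8.33% of glucocorticoid-type, 4.35% of hypoxia and 6.67% of retinoic acid genes, against 4.23% of all genes tested. It was 3.7% in the unfolded protein and integrated stress list and 2.94% in the cell cycle list. In lists of this size, 1 call or none is close to the share over all genes and is no result about the family.

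Direct comparison of ITO with the other films, which does not use the plates, gave no call. Against P(rGO), 0 of 18081 genes passed the test and 299 had an unadjusted p under 0.05. Against PEDOT:PSS the numbers were 0 and 283, and against the mean of both films 0 and 351. DESeq2 called 0, 2 and 5 genes in the same comparisons. The median standard error was 0.256 for a single film and 0.222 for the mean, so these comparisons do not show that the films act alike. When ITO 1 was left out, edgeR called 9, 10 and 25 genes.

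Among genes with a symbol and at least 5 CPM in a group, ENC1, ID2 and ID1 had the smallest p against P(rGO). ENC1, an actin-binding protein of neurons, was at 73.5 and 39 CPM on ITO, 141 and 196 on P(rGO) and 77.1 and 94.4 on PEDOT:PSS (-1.58 ± 0.35 against P(rGO), adjusted p = 1 in edgeR's test). Against PEDOT:PSS the genes were INSM2, SLIT1 and SYTL2. SLIT1 was at 40.6 and 32.3 CPM on ITO, 38.2 and 40 on P(rGO), and 68.9 and 67.3 on PEDOT:PSS (-0.90 ± 0.22 against PEDOT:PSS, adjusted p = 1), with all of them far below the 262 and 240 CPM of the plates. INSM2 was at 19.2 and 12.1 CPM on ITO, 25.5 and 25.9 on P(rGO) and 33.7 and 31.7 on PEDOT:PSS (-0.89 ± 0.18 against the mean of both, adjusted p = 1). PEG3, an imprinted zinc finger gene, and SYTL2 were the other genes named by this rule against that mean, both with an adjusted p of 1. PEG3 was at 52.2 CPM in ITO 1 and 187 in ITO 2, with 41.2 to 55.5 CPM in the 4 libraries of the other films.

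The levels on the other films are given side by side because their differences from the same plate libraries are not independent of those of ITO. SGK1 was at 103 and 87.9 CPM on P(rGO) and 116 and 87.7 on PEDOT:PSS, beside 125 and 162 on ITO. EGR1 was at 274 and 242 on P(rGO) and 179 and 204 on PEDOT:PSS. KIT was at 0.458 and 0.521 on P(rGO) and 0.447 and 0.595 on PEDOT:PSS. SPOCK1 was at 14.1 and 12 on P(rGO) and 19.1 and 20.7 on PEDOT:PSS, above both ITO libraries at 7.46 and 1.28 and below both plate libraries.

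Electrical stimulation on ITO, a square wave of 0.1 V at 1 Hz for 8 hours a day over the last 4 days, gave 0 calls against unstimulated ITO in edgeR and 0 in DESeq2, with 293 genes at an unadjusted p under 0.05. By the same rule the genes with the smallest p were INSM2, FDFT1 and TEKT2. FDFT1, squalene synthase, was at 16.9 and 16.1 CPM without and 8.21 and 9.63 with stimulation, close to the 8.47 and 7.54 CPM of the plates (-0.88 ± 0.28, adjusted p = 1).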

How the data were processed

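Libraries came from polyadenylated RNA and a directional kit, per the labels' protocols. The authors deposited read counts per gene, 1 column a library, made with STAR and HTSeq on GRCh38.p13 or hg38, per the submitters' processing notes. Tool versions and HTSeq's strand setting are not given in the sources used here. Overlapping or antisense genes may therefore share counts. Of 69222 gene rows, 32387 held no count. The 5 summary rows, 26.1% to 31.8% of a library, were left out, among them the reads that aligned to several places. The 16 libraries had 15600410 to 20851000 assigned reads. Replicates of every group differed beyond sampling noise.

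Genes passing edgeR's expression filter over the 8 groups (18081) were scaled by TMM and fitted over all 16 libraries with 1 mean per group (edgeR 4.0.16, R 4.3.3, robust quasi-likelihood, 8 residual degrees of freedom). Calls needed a p of at most 0.05 after Benjamini-Hochberg adjustment. The standard error is the log2 fold change over the root of F. Differences within a replicate number use log2 CPM with a prior count of 2. The 2 libraries a group limit precision, and counting intervals (exact, 95%) cover counting error only. DESeq2 1.42.0 was an alternative, with other scaling, filters, libraries and a replicate block. The model was also run on counts simulated from its own fit, which cannot show how well it suits these data. Symbols matched 62639 rows, coordinates are from GENCODE 29 and promoters from RefSeq.

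Named genes were the 10 largest called rises and falls (5 CPM or more in a group, no overlap, a gene symbol), the 5 most abundant each way, the 3 smallest p-values of each list with at least 3 calls, further members of lists where a list is described by role, and the 3 smallest p-values where a film comparison had no call. The comparison and lists were chosen with earlier results of these data known. RADIL, PLS3, B4GALT6, PRSS12, OSBPL3, TACC2, PDZRN3, CHRD and KCNK3 were singled out after their values were seen. Lists were described by counts and medians, with no test. Some list members are counted but not reported here by name.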

Additional observations from a re-analysis of the deposited data

How the results depend on the processing

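The count of 764 genes called between ITO and plates was 740 with RLE scaling, 513 with only the 4 libraries in the fit and 849 with the replicate number as a block. It rose to 1430 with no low-count filter, 1187 with DESeq2 and 1722 without the undifferentiated cells, whose replicates had a coefficient of variation of 36.2%. Leaving out 1 library gave 132 to 817. In those fits the lone library of a group is assumed to vary like the other groups. Against P(rGO) the count of 0 became 48 with no filter and 1 (GAL) with only the groups compared, and 0 to 9 with 1 library left out. Against PEDOT:PSS it became 48 with no filter and 2 (CCL2 and INSM2) with DESeq2, and 0 to 10. Against the mean of both films it became 73 with no filter and 5 with DESeq2 (CCL2, NEUROG2, INSM2, SOX5 and MGP), and 0 to 25. For stimulation on ITO it became 18 with no filter, and 0 to 3 (KCNK3, PEG3 and RBM15-AS1, without ITO 1). The cause of these changes was not tested. Of 178 called genes that a list holds or that are among the largest or most abundant changes, 40 lost the call in no leave-out, 10 in 1, 27 in 2, 70 in 3 and 31 in 4, and none changed direction under any alternative run. Replicate numbers 1 and 2, and a prefix of the sample names that goes with each, run through every group, but what they mark is not stated. They were not taken to pair the libraries: the differences between replicates 1 and 2 correlated across genes at 0.108 between plates and ITO and at -0.189 to 0.294 between other groups. Of the 178 genes, 177 were tested with only the 4 libraries in the fit, and 70 of those were not called. Among the 70 were ID2 (adjusted p = 0.168 in edgeR's test), ACTB (0.157), COL3A1 (0.152), SCG2 (0.0865) and FN1 (0.081). With the replicate block, 10 of the 178 genes were not called: FOS (adjusted p = 0.0612 in edgeR's test), ELAVL2 (0.0546), S100A4 (0.0581), RIMS3 (0.0529), CACNA2D3 (0.0509) and 5 ribosomal protein genes. Ribosomal protein calls (17) became 12 with RLE scaling or the block, 36 with DESeq2, 48 with no filter, 47 without the undifferentiated cells and 0 with only the 4 libraries. With 2 libraries a group, a median standard error of 0.256 limits what can be called.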

Other observations

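A set of genes was higher in ITO 2 than in ITO 1. Of 24 genes called against either film or their mean when ITO 1 was left out, 22 were higher in ITO 2 than in ITO 1, and 20 by more than 2-fold. SOX5, a transcription factor of neural crest and cartilage, was at 0.178 CPM in ITO 1 and 9.03 in ITO 2, with 0.162 to 0.515 CPM in the 4 unstimulated libraries of the other films. LGSN was at 0.237 and 5.07 CPM. These genes were chosen after their values were seen, and what sets ITO 2 apart was not tested.

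CCL2, a chemokine that attracts monocytes, was at 0 in both plate libraries and at 0.77 and 7.69 CPM on ITO. It was at 2.25 and 4.42 CPM on stimulated ITO, at 0.0573 and 0 on P(rGO) and at 0.0638 and 0.108 on PEDOT:PSS. MGP, matrix Gla protein, was at 0.474 and 2.62 CPM on ITO, 1.97 and 3.24 on stimulated ITO and at most 0.319 in the 4 unstimulated libraries of the other films. Undifferentiated cells had 2.6 and 8.35 CPM of CCL2 and 8.88 and 4.12 of MGP. Neither passed edgeR's test against the mean of the other films.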
